A study of Mus musculus with 10 samples.

Results

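The endothelial receptor and junction genes Pecam1, Cdh5, Kdr, Flt1, Tek, Tie1, Eng, Cd34 and Egfl7 were followed across whole kidneys of 5 mice with an FGF23 transgene (TG 614, 619, 652, 657 and 661) and of 5 littermates without it (WT 612, 618, 650, 658 and 663). All were on the C57Bl strain, per the labels, and kidneys were taken at 8 weeks. The TG mice were made by microinjection of human wild-type FGF23 behind a promoter that the labels call 1 alpha col 1. A collagen I promoter is active in bone and in other collagen-forming cells, and where the TG mice make the hormone was not examined here. Whether the TG mice descend from 1 founder, and which animals share a litter, was not given in the labels. The genotype field of the labels reads FGF23 TG for all 10 animals, so the groups were taken from the sample titles. Every probe set of the MG_U74Av2 array that the platform annotation ties to a single one of these genes was taken, whatever its value. This gave 11 of 12488 probe sets, for 8 of the 9 genes, and Egfl7 was named by no probe set. Each animal has 1 array, and p-values measure the spread between animals.

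These genes mark the inner lining of vessels. Kdr and Flt1 are the receptors of vascular endothelial growth factor, Tek and Tie1 the receptor tyrosine kinases of the angiopoietin system, and endoglin (Eng) a co-receptor of the TGF-beta and BMP family. VE-cadherin (Cdh5) and Pecam1 hold endothelial cells together at their junctions, and Cd34 is a surface sialomucin of capillary endothelium and of blood progenitors. In the kidney they are known from glomerular and peritubular capillaries and the larger vessels, and since other kidney cells make little of most of them, their joint level is often read as the share of vessel RNA. In RNA from whole kidney, fewer endothelial cells and less RNA per endothelial cell cannot be told apart.

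Between 53.0% and 57.0% of the probe sets had a log2 value over 4, the floor used here to decide what was tested, on each array, and the lowest correlation between any 2 arrays was 0.980. The RNA-quality controls differed between animals. The log2 gap between the 3' and the 5' control probe sets of actin was 2.17, 2.58, 1.82, 2.16 and 1.97 in the TG animals, against 3.35, 2.90, 2.42, 1.95 and 2.0 in the WT animals, so WT 612 and WT 618 had the widest gaps. Xist showed 2 females and 3 males in each group, with TG 614, TG 652, WT 612 and WT 650 female. The fat marker Adipoq stood at 8.17 in WT 650 and at no more than 4.91 on the other arrays, and Retn, also made by mouse fat, stood at 7.13 in WT 650 and at no more than 4.26 elsewhere. The endothelial genes of WT 650 averaged only 0.02 below their 10-animal mean.

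All 11 probe sets lay over the floor on all 10 arrays, so all were tested and none entered through 1 group alone. None of them passed the comparison of TG with WT by limma with Benjamini-Hochberg adjustment over 6814 probe sets, where 83 of all tested probe sets, or 1.22%, did. At an unadjusted p under 0.05 the count was again 0 of 11, against 12.7% of all tested, and by the exact permutation test over the 252 assignments of animals it was 0 of 11 too. For 0 of the 11 did the TG and WT values not overlap, against 4.08% of all tested. Of the 11 probe sets 7 were higher and 4 lower in TG, and the median difference over the 8 genes was 0.06 on the log2 scale, beside -0.02 over all tested probe sets. Values below are deposited log2 values, in the order of the animals named above, and differences are TG minus WT on the log2 scale with the standard error from limma.

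**Figure D1:**
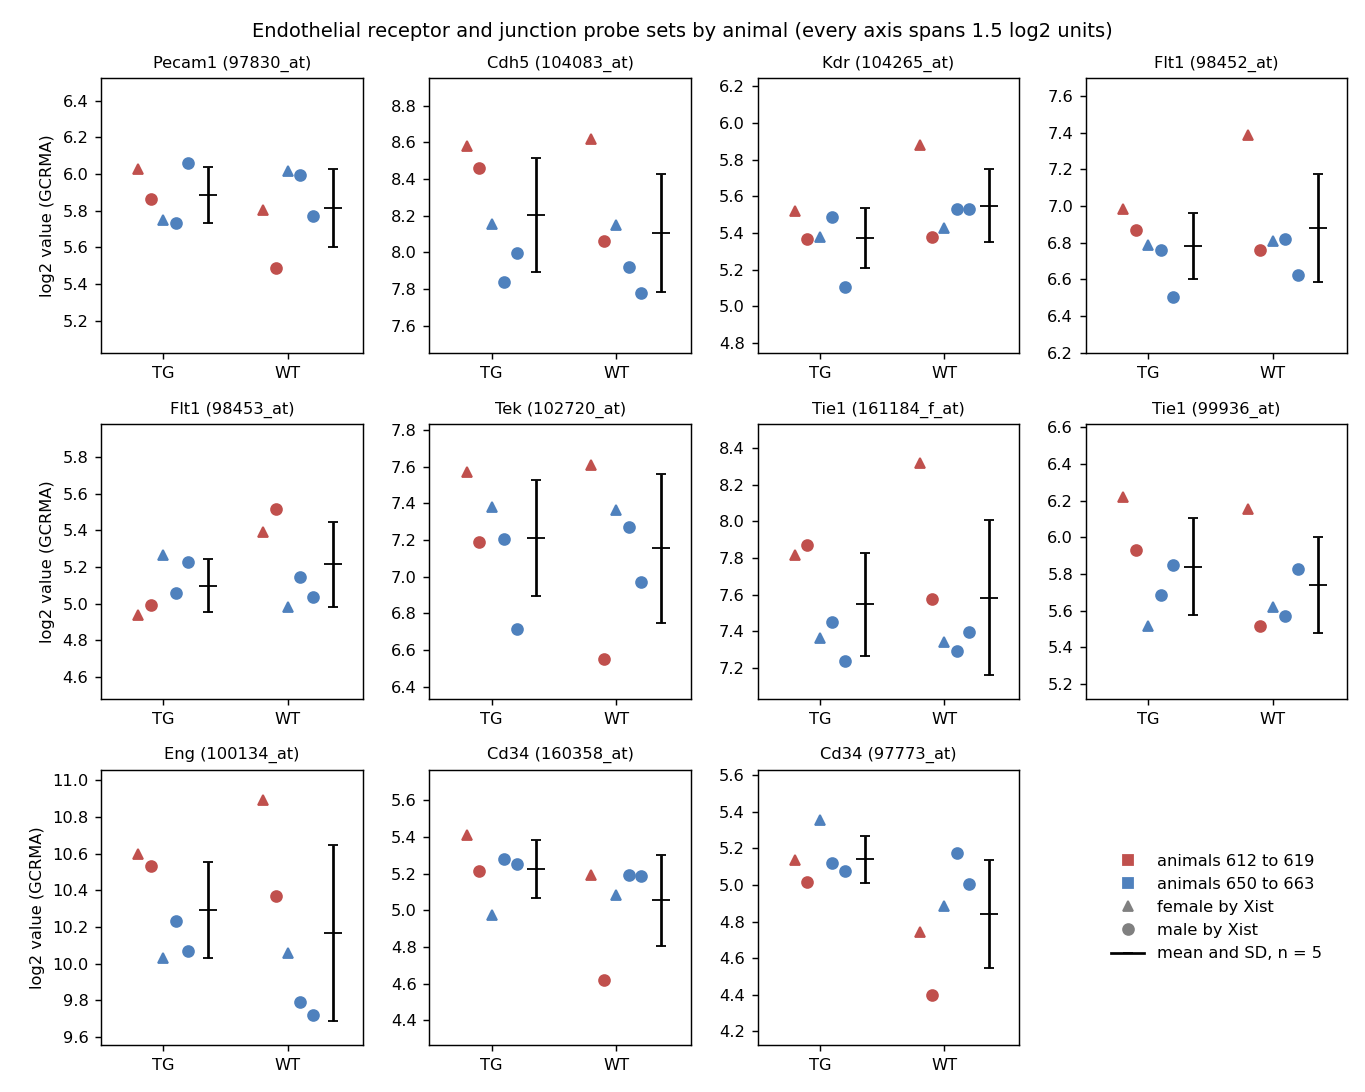
Log2 values (y axis, GCRMA) of the 11 probe sets in the 5 TG (left) and 5 WT (right) animals of each panel; triangles are females and circles males by Xist, colours mark the animal numbers 612 to 619 and 650 to 663, and the bar gives mean and SD (n = 5). TG and WT overlap in every panel, and in the Eng panel the animals numbered 612 to 619 lie above those numbered 650 to 663 in both groups.

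The receptors of vascular endothelial growth factor were slightly lower in TG on average, by less than their spread. Kdr, the main signalling receptor (probe set 104265_at), had values of 5.52, 5.37, 5.38, 5.49 and 5.10 in TG kidneys, against 5.88, 5.38, 5.43, 5.53 and 5.53 in WT kidneys. No TG animal reached above the WT median, yet the groups overlapped, since TG 614, TG 652 and TG 657 lay above the lowest WT animal. The difference was -0.18 ± 0.12 (limma adjusted p = 0.582), with a 95% interval from -0.44 to 0.08, and the exact permutation p was 0.151. Flt1, which binds the growth factor tightly and is also released as a soluble decoy, was read by a pair of probe sets. On 98452_at it had 6.99, 6.87, 6.79, 6.76 and 6.50 in TG kidneys, against 7.39, 6.76, 6.81, 6.82 and 6.62 in WT kidneys, where WT 612 stood well above every other animal. On 98453_at it had 4.94, 4.99, 5.27, 5.06 and 5.23 in TG kidneys, against 5.39, 5.52, 4.98, 5.14 and 5.03 in WT kidneys, with WT 618 the highest. The differences were -0.10 ± 0.15 (limma adjusted p = 0.822) and -0.12 ± 0.12 (limma adjusted p = 0.742), and without WT 612 the first was 0.03. The Flt1 probe sets did not rank the animals alike (Pearson r = 0.18 over 10 animals, permutation p = 0.629, adjusted over the 3 genes with a pair of probe sets 0.629; Spearman rho = -0.25, permutation p = 0.489, adjusted 0.489; r = -0.32 without the 2 animals farthest from the median).

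In the angiopoietin system the group means nearly coincided. Tek, the Tie2 receptor (102720_at), had 7.57, 7.19, 7.38, 7.21 and 6.72 in TG kidneys, against 7.61, 6.55, 7.36, 7.27 and 6.97 in WT kidneys. TG 661 and WT 618 were the lowest animals, 1 from each group, and TG 614 and WT 612 the highest. The difference was 0.06 ± 0.21 (limma adjusted p = 0.932), and -0.09 without WT 618. Tie1, the partner receptor that forms complexes with Tie2, had 7.82, 7.87, 7.36, 7.45 and 7.24 in TG kidneys on 161184_f_at, against 8.32, 7.57, 7.34, 7.29 and 7.39 in WT kidneys. WT 612 lay far above the other WT animals, and the remaining values of the groups overlapped. The suffix of that probe set marks probes shared within a family of sequences, so its level may hold more than Tie1. The second probe set, 99936_at, had 6.22, 5.93, 5.52, 5.68 and 5.85 in TG kidneys, against 6.16, 5.52, 5.62, 5.57 and 5.83 in WT kidneys, with TG 614 and WT 612 again the highest of their groups. The differences were -0.04 ± 0.21 (limma adjusted p = 0.962) and 0.10 ± 0.16 (limma adjusted p = 0.832), and that of 161184_f_at was 0.15 without WT 612. The Tie1 probe sets correlated at r = 0.73 (permutation p = 0.0166, adjusted 0.0498; rho = 0.52, permutation p = 0.133, adjusted 0.368; r = 0.58 without the 2 farthest animals).

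Endoglin varied more between animals than between genotypes. Eng (100134_at) had 10.60, 10.53, 10.03, 10.23 and 10.07 in TG kidneys, against 10.89, 10.37, 10.06, 9.79 and 9.72 in WT kidneys. Its highest and lowest values were both from WT animals, 1.18 log2 units apart, and all 5 TG values lay between them. The difference was 0.13 ± 0.22 (limma adjusted p = 0.857), with a 95% interval from -0.36 to 0.61.

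Among the junction genes, Cdh5 (104083_at) had 8.58, 8.46, 8.16, 7.84 and 8.00 in TG kidneys, against 8.62, 8.06, 8.15, 7.92 and 7.78 in WT kidneys. TG 614, TG 619 and WT 612 were its 3 highest animals. Pecam1 (97830_at) had 6.02, 5.86, 5.75, 5.73 and 6.06 in TG kidneys, against 5.80, 5.49, 6.02, 6.00 and 5.77 in WT kidneys, and here WT 612 was not among the high animals. The differences were 0.10 ± 0.18 for Cdh5 (limma adjusted p = 0.862) and 0.07 ± 0.12 for Pecam1 (limma adjusted p = 0.849), which without WT 618 was -0.01.

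Cd34 differed most from WT among the 11 probe sets on 97773_at, still short of the test. On 160358_at it had 5.41, 5.21, 4.97, 5.28 and 5.25 in TG kidneys, against 5.19, 4.62, 5.08, 5.19 and 5.19 in WT kidneys, where WT 618 alone was low. On 97773_at it had 5.14, 5.01, 5.35, 5.12 and 5.07 in TG kidneys, against 4.74, 4.40, 4.88, 5.18 and 5.0 in WT kidneys, and all 5 TG animals lay above the WT median while WT 658 reached into their range. The differences were 0.17 ± 0.13 (limma adjusted p = 0.634) and 0.30 ± 0.14 (limma adjusted p = 0.407). For 97773_at this is a fold of 1.23 with a 95% interval from 0.994 to 1.52, and the exact permutation p was 0.0635.

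**Figure D2:**
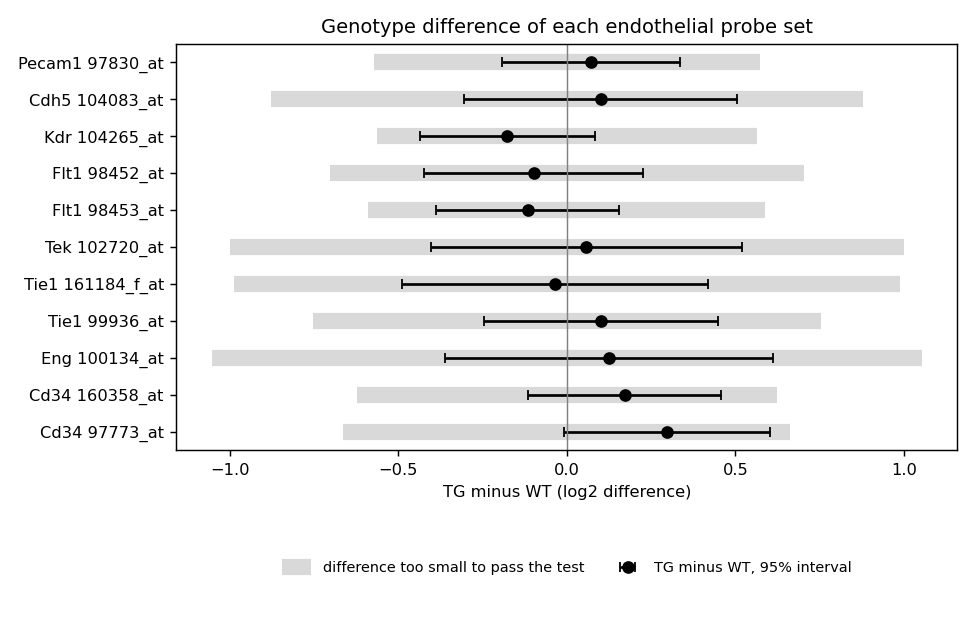
TG minus WT difference of each probe set (points, log2) with its 95% interval from limma (bars); grey bands show the differences too small to pass adjusted p 0.05 given each standard error. Every point lies inside its band, and every interval spans 0.

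Given each standard error, an observed difference between 0.56 (Kdr) and 1.05 (Eng) would have been needed for a probe set to pass in this fit of 5 animals a group. The SD within groups had a median of 0.24 over the 11 probe sets, beside 0.22 over all tested. Within batches of arrays the differences were as follows. Over the 11 probe sets they ran from -0.49 to 0.50 in animals 612 to 619 (2 TG, 2 WT) and from -0.17 to 0.25 in animals 650 to 663 (3 TG, 3 WT). They ran from -0.33 to 0.40 in the first chip lot (2 TG, 3 WT), from -0.14 to 0.38 in the second (2 TG, 2 WT), and from -0.19 to 0.35 on the first processing day (4 TG, 4 WT). The range was -0.27 to 0.36 on fluidics station 1 (3 TG, 3 WT) and -0.27 to 0.21 on station 2 (2 TG, 2 WT). In females they ran from -0.24 to 0.43 (2 TG, 2 WT) and in males from -0.16 to 0.32 (3 TG, 3 WT). The difference between the genotype effects in females and males had a lowest limma adjusted p of 0.996 over the 11 probe sets.

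Averaged over the 8 genes, each represented by whichever of its probe sets averaged highest, the endothelial level of a kidney stood 0.26, 0.12, -0.08, -0.05 and -0.18 from the 10-animal mean in the TG animals, against 0.41, -0.20, -0.02, -0.08 and -0.18 in the WT animals (log2). The group means were 0.01 ± 0.18 in TG and -0.01 ± 0.25 in WT (SD, n = 5 each). The widest gap lay within WT: WT 612 was the highest animal for 6 of the 8 genes, and WT 618 the lowest for 3. TG 661 was also lowest for 3 genes and WT 663 for 2. WT 612 and WT 618 stood at opposite ends in some other lists too, but not in all. The podocyte list, whose cells sit on the glomerular capillaries, was 0.78 above its mean in WT 612 and 0.66 below in WT 618 (deviation -0.66), and the mural list of smooth muscle and pericytes stood at 0.34 and -0.48. The list of other endothelial markers was highest in TG 614 at 0.29, with WT 612 at 0.15 and WT 618 lowest at -0.25. WT 618 was also lowest in the tubule list (-0.38, with WT 612 at 0.15) and the leukocyte list (-0.71, with WT 612 at -0.36). WT 612 and WT 618 are also the animals with the widest actin gaps, and the part of RNA quality in these levels was not tested.

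**Figure D3:**
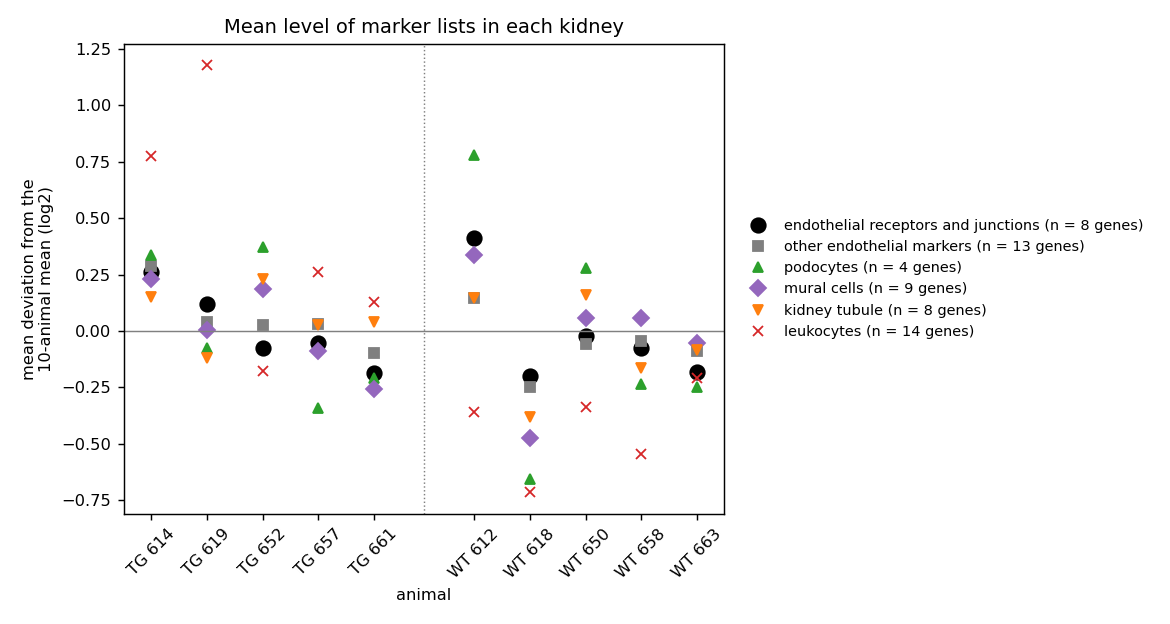
Mean deviation (y axis, log2) of 6 gene lists from their 10-animal means in each kidney, TG animals on the left and WT animals on the right. The endothelial list (black) is highest in WT 612 at 0.41 and lowest in WT 618 at -0.20, while the leukocyte list (red crosses) is highest in TG 619 at 1.18.

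Some of the genes varied together over the 10 animals by Pearson's r. Over the 10 animals the 28 pairs of the 8 genes had a median Pearson r of 0.45, from -0.16 to 0.90, and 24 were positive. Of the 28, 9 (32.1%) had r over 0.7, beside 5.38% of the 14015865 pairs of all tested genes, whose median r was 0.01. After permutation tests with adjustment over the 28 pairs, 7 passed by Pearson's r and 0 by Spearman's rho. Tie1 and Eng were the most alike, with r = 0.90 (permutation p = 0.00017, adjusted 0.00476), rho = 0.78 (permutation p = 0.0103, adjusted 0.113) and r = 0.81 without the 2 animals farthest from the median. The other pairs that passed were Flt1 with Tie1 (r = 0.88), Cdh5 with Eng (0.86), Kdr with Flt1 (0.85), Cdh5 with Tie1 (0.83), Cdh5 with Flt1 (0.78) and Flt1 with Eng (0.77). Kdr with Flt1 rested on its extreme animals, and without WT 612 and TG 661 its r was -0.05. After each group mean was subtracted, the median r of the 28 pairs was 0.55.

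Tie1, Eng, Cdh5 and Flt1 formed the tight set, chosen after their values were seen, with r between 0.77 and 0.90 in its 6 pairs. Pecam1 and Cd34 had r between -0.16 and 0.20 with these 4 genes. With each other they had r = 0.73, which did not pass (permutation p = 0.0213, adjusted 0.0661; rho = 0.50, permutation p = 0.143, adjusted 0.400; r = 0.29 without the 2 farthest animals). With Tek, r was 0.53 for Cd34 and 0.39 for Pecam1. The mean r with the other 7 genes was 0.12 for Pecam1 and 0.28 for Cd34, against 0.59 for Flt1. Much of the covariation was lost without WT 612: the median r was then 0.26, 0 of the 28 pairs passed (4 without TG 619), and the 6 pairs of the tight set ran from 0.57 to 0.85. Without both WT 612 and WT 618 the median r was at least 0.38, and again 0 pairs passed. Within the batches and the sex that number at least 6 animals, the median was high where WT 612 was included and near 0 where it was not. The median r was 0.53 on the first processing day (n = 8) and 0.66 on fluidics station 1 (n = 6), both with WT 612, and 0.07 in males (n = 6) and 0.08 in animals 650 to 663 (n = 6), both without it. In animals 650 to 663 the pairs of the tight set ran from -0.36 to 0.38, and in males from 0.43 to 0.81. Animals 612 to 619 and the females number 4 each, too few for a correlation.

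**Figure D4:**
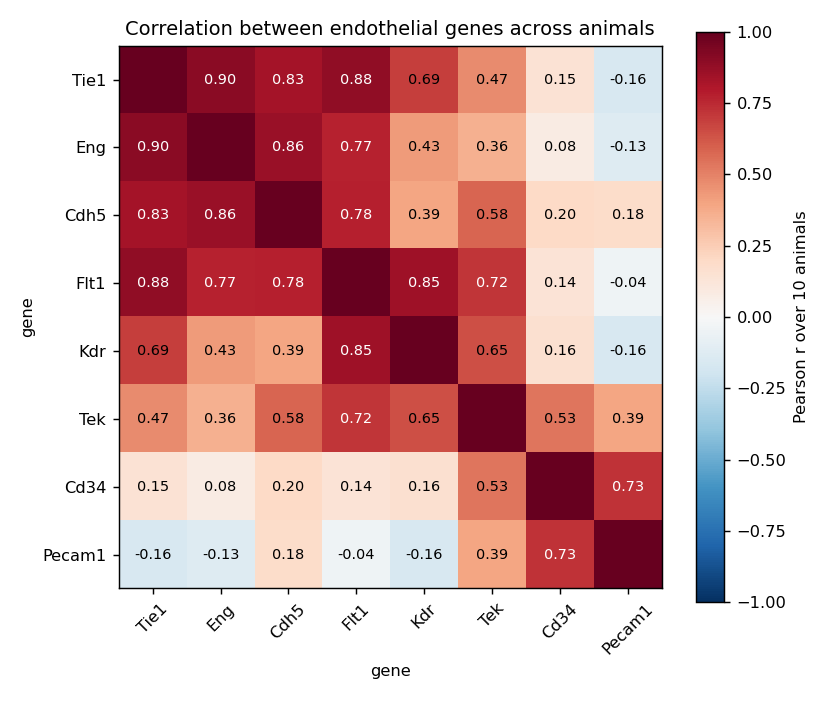
Pearson r over the 10 animals for each pair of the 8 genes (colour scale and printed value; rows and columns are genes). Tie1, Eng, Cdh5 and Flt1 share r of 0.77 to 0.90, while Pecam1 and Cd34 have r of -0.16 to 0.20 with these 4 genes and up to 0.53 (Cd34 with Tek) with the remaining ones apart from each other.

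The promoters of the most alike pair, Tie1 and Eng, are shown beside that of Cd34, which stood apart from them. Each is the RefSeq sequence on GRCm38.p6 from 250 bases before to 50 after the start of the gene, read 5' to 3' on the gene's strand. Capitals mark CAGGAA or its reverse complement TTCCTG, an extended form of the GGAA core that ETS factors, central regulators of endothelial genes, bind. Tie1 lies at chr4:118489800-118490099 on the minus strand, Eng at chr2:32646345-32646644 on the plus strand, and Cd34 at chr1:194938571-194938870 on the plus strand.
Tie1: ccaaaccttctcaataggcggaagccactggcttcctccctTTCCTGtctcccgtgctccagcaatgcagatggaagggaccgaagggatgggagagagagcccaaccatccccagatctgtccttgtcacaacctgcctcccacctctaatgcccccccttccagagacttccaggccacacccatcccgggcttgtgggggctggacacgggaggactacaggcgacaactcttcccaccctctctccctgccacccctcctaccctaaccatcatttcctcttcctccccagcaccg
Eng: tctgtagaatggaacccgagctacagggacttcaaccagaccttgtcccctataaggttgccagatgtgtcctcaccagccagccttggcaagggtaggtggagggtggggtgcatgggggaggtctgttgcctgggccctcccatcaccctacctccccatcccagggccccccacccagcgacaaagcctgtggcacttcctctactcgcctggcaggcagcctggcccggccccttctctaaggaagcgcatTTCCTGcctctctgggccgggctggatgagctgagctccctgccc
Cd34: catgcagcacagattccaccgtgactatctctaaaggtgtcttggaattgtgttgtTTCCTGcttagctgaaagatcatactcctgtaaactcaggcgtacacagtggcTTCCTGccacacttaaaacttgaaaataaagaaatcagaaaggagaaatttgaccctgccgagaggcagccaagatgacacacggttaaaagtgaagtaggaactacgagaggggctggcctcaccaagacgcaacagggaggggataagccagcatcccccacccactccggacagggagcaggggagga
The match starts at base 42 of the Tie1 window and at base 256 of the Eng window, just past the start of the gene, and Cd34 has matches at bases 57 and 110. Of the 6 measured genes in the promoter table (Kdr, Flt1, Tek, Tie1, Eng and Cd34) 4 held the 6 letters on either strand, Tek too, beside 30.6% of all 32851 promoters of the same length. The shorter GGAA, which lies within CAGGAA, was in 6 of 6 and in 96.0% of all promoters. The GATA core AGATAA was found in that of Tek only, and in 11.2% of all, and TATAAA in that of Flt1 only, and in 13.6% of all. A match describes the letters in the window and shows no binding, and the 6 letters were in Tie1, Eng and Cd34 alike and in neither Flt1 nor Kdr.

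Animal number separated Eng where genotype did not. The numbers fall into 612 to 619 (2 TG, 2 WT) and 650 to 663 (3 TG, 3 WT), a split examined after the values were seen, and the labels do not say what the numbers stand for. With genotype in the model, Eng was 0.62 ± 0.13 higher (log2) in animals 612 to 619 (limma adjusted p = 0.0380), and the ranges did not overlap, at 10.37 to 10.89 in animals 612 to 619 against 9.72 to 10.23 in animals 650 to 663. It was the only one of the 11 probe sets to pass, beside 3.6% of all tested in either direction and 1.36% higher in animals 612 to 619. Tie1 on 161184_f_at also did not overlap, at 7.57 to 8.32 against 7.24 to 7.45 (0.55 ± 0.13, limma adjusted p = 0.0511), and 6.94% of all tested probe sets did not. Cdh5 differed by 0.46 ± 0.13 (limma adjusted p = 0.0733), while Pecam1 differed by -0.09 ± 0.12. The second probe set of Tie1, 99936_at, overlapped, at 5.52 to 6.22 in animals 612 to 619 against 5.52 to 5.85 in animals 650 to 663 (0.28 ± 0.14, limma adjusted p = 0.264). Cd34 was lower in animals 612 to 619, by -0.05 ± 0.14 on 160358_at and by -0.28 ± 0.12 on 97773_at (limma adjusted p = 0.186). The Eng call held in 2 of 10 fits with 1 animal left out, and it was lost with fluidics station (0.70, adjusted p = 0.188) or chip lot (0.46, adjusted p = 0.639) as a block. All 4 animals numbered 612 to 619 were run on the first chip lot and on station 1. WT 650, of the same lot, read 10.06, and TG 661 and WT 663, of the same station, read 10.07 and 9.72. These arrays are too few to tell number range from lot or station. RNA quality moved with the number ranges as well: the actin gap between 3' and 5' probe sets averaged 2.75 ± 0.50 in animals 612 to 619 and 2.05 ± 0.21 in animals 650 to 663, and the Gapdh gap 1.00 ± 0.33 and 0.55 ± 0.18 (log2, SD, n = 4 and 6). All 14 tested leukocyte genes (median 0.34) and 6 of 7 fibroblast genes (median 0.45) were higher in animals 612 to 619, beside a median of -0.02 over all tested probe sets. Both lists were highest in TG 614 and TG 619 (leukocytes 0.78 and 1.18 above their mean). In WT 612 and WT 618 the leukocyte list stood at -0.36 and -0.71, and in the other WT animals at -0.34, -0.55 and -0.21. Eng was higher in animals 612 to 619 within WT (by 0.78) and within TG (by 0.45). The part of RNA quality and of these lists in the Eng difference was not tested. The difference between the genotype effects in the number ranges had a lowest limma adjusted p of 0.913, for Flt1 on 98453_at.

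Tek was the probe set with the widest gap between the sexes, at 0.50 higher in females with genotype in the model (limma adjusted p = 0.0697), which did not pass. None of the 11 probe sets passed between the sexes by limma, beside 8.53% of all tested, and 2 had an unadjusted p under 0.05, Tek and Cdh5, beside 30.1% of all tested.

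The genes most like the mean of the 8 across the 10 animals, among 5287 other tested genes, were Nrp1 (r = 0.95), Emcn (0.93), Zbtb2 (0.93), Alcam (0.93), Rrp1b (0.92), Wwc2 (0.92), Rasip1 (0.92) and Frmd6 (0.91). Nrp1 is a co-receptor of vascular endothelial growth factor, endomucin (Emcn) a sialomucin of capillary and venous endothelium, and Rasip1 a regulator of endothelial junctions. WT 612 was the highest animal for 7 of these 8. For Emcn this holds on 94997_at, the probe set that stood for it. Its probe set 93885_g_at was highest in TG 652 (9.25, with WT 612 at 8.64). On 93884_at, Emcn was highest in WT 658 (5.53, with WT 612 at 4.89). By list, the median r with the endothelial mean was 0.72 for 4 podocyte genes, 0.66 for 12 related receptors and signalling genes, 0.52 for 9 mural genes, 0.51 for 7 fibroblast genes, 0.43 for 13 other endothelial markers, 0.42 for 7 vascular ligands, 0.33 for 14 leukocyte genes, 0.32 for 10 junction partners, 0.23 for 8 tubule genes and 0.11 for 4 genes of blood cells and platelets, beside -0.05 over the 5287 genes, of which 372 had r over 0.7.

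In the other vascular lists a single gene passed the comparison of TG with WT, beside the 1.22% of all tested probe sets. Of 13 tested other endothelial markers 1 rose, 0 fell and 12 did not pass, and their median difference was -0.04. The gene that rose was Ramp2 (99444_at), which escorts the adrenomedullin receptor to the cell surface and is abundant in, but not confined to, endothelium. It had 8.42, 7.83, 8.10, 7.69 and 7.84 in TG kidneys, against 6.82, 6.69, 7.01, 6.68 and 6.74 in WT kidneys. Every TG value lay above every WT value, the difference was 1.19 ± 0.14 (limma adjusted p = 0.00322), a fold of 2.28, and it passed in 25 of 25 alternative fits. Another 11 markers of that list, among them Vwf and Nos3, lay under the floor on more than 5 arrays and were not tested, and Vwf and Nos3 did so on every array.

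Of 7 tested vascular ligands none passed by limma (1 at an unadjusted p under 0.05), with a median of -0.09. The closest were Vegfd, a ligand of Kdr in humans and of Flt4, at -0.33 ± 0.14 (limma adjusted p = 0.376), and Tgfb1, a ligand that endoglin helps to bind, at 0.52 ± 0.26 (limma adjusted p = 0.447). Of 12 related receptors and signalling genes none passed by limma and none had an unadjusted p under 0.05, yet all 12 were higher in TG, with a median of 0.20. Smad6, an inhibitor of BMP signalling, differed by 0.42 ± 0.21 (limma adjusted p = 0.441) and Id3, a BMP target, by 0.85 ± 0.51 (limma adjusted p = 0.533). Of 10 junction partners none passed by limma (0 at an unadjusted p under 0.05), 9 were higher, and the median was 0.22. Occludin (Ocln) differed by 0.55 ± 0.25 (limma adjusted p = 0.394) and alpha-catenin (Ctnna1) by 0.23 ± 0.11 (limma adjusted p = 0.401), and both are made in tubule epithelium as well. Ocln lay near the floor and over it on 7 arrays, those of all TG animals, WT 658 and WT 663. WT 612, WT 618 and WT 650 read 2.93, 3.16 and 3.91, so Ocln entered the test through the TG group.

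**Figure D5:**
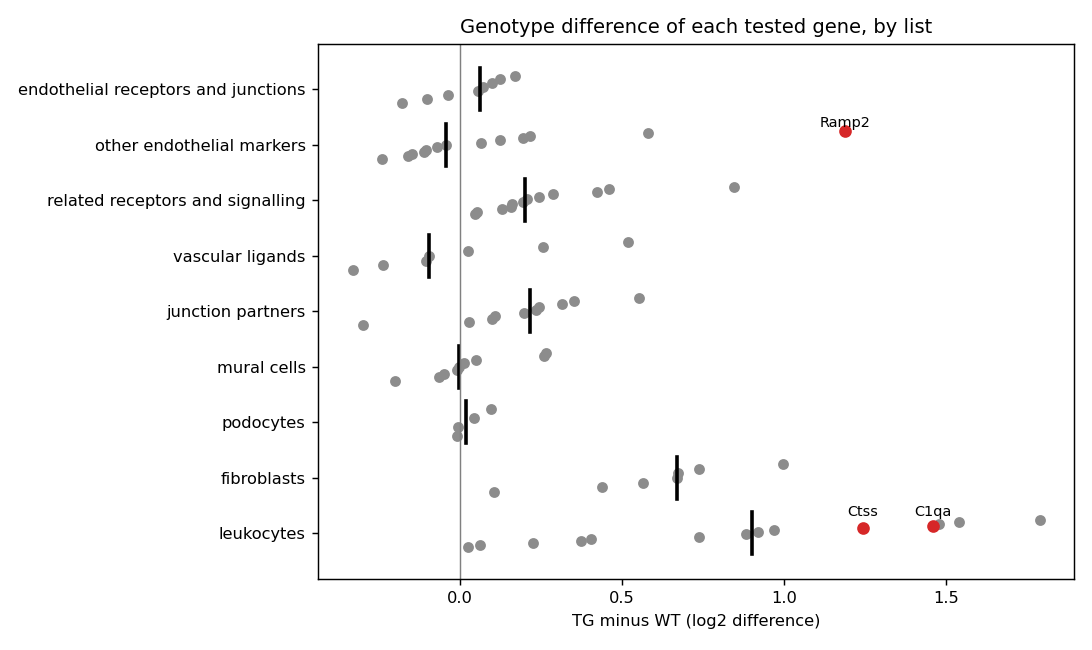
TG minus WT difference (x axis, log2) of each tested gene in 9 lists; red points passed limma at adjusted p 0.05, grey ones did not, and black bars are list medians. The endothelial receptor and junction genes lie between -0.18 and 0.17 around a median of 0.06, while the leukocyte median is 0.90.

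Lists of the other cells of the kidney were set beside the vessel genes. Of 9 tested mural genes none passed by limma (0 at an unadjusted p under 0.05), with a median of -0.0002, Smtn at 0.26 ± 0.16 (limma adjusted p = 0.539) and Pdgfrb at 0.27 ± 0.20 (limma adjusted p = 0.624). Of 4 podocyte genes none passed (0 at an unadjusted p under 0.05), with Synpo at 0.10 ± 0.30 (limma adjusted p = 0.921) and Wt1 at 0.04 ± 0.19 (limma adjusted p = 0.944). Of 14 leukocyte genes 2 rose, the lysosomal protease Ctss by 1.24 ± 0.23 (limma adjusted p = 0.0370) and the complement component C1qa by 1.46 ± 0.31 (limma adjusted p = 0.0493), and all 14 were higher in TG with a median of 0.90. At an unadjusted p under 0.05 the count was 10 of 14, beside 12.7% of all tested probe sets. For 5 of 14 the groups did not overlap, beside 4.08% of all tested. Both counts hold C1qc, which lay over the floor on 6 arrays, those of all TG animals and of WT 663. It therefore entered the test through the TG group. With 1 animal left out, Ctss passed in 3 of 10 fits (1.05 to 1.46 over all alternatives) and C1qa in 1 of 10 (1.21 to 1.68). Of 7 fibroblast genes none passed by limma (3 at an unadjusted p under 0.05), all were higher in TG and the median was 0.67, with Fbln1 at 0.67 ± 0.21 (limma adjusted p = 0.202) and Mgp at 1.00 ± 0.36 (limma adjusted p = 0.276). TG 614 and TG 619 stood apart in that list, 0.67 and 1.09 above its 10-animal mean, while the other TG animals lay between -0.24 and 0.09 and the WT animals between -0.78 and 0.12. Of 4 genes of blood cells and platelets, the red-cell anion exchanger Slc4a1, also made in the collecting duct, rose by 0.83 ± 0.17 (limma adjusted p = 0.0478) and passed in 2 of 10 such fits. The other 3 did not pass: Hba-a1 differed by 0.20 ± 0.17 (limma adjusted p = 0.675), Alas2 by -0.01 ± 0.11 (0.972) and Gp9 by -0.20 ± 0.12 (0.543). Over this list 2 genes were higher and 2 lower in TG, with a median of 0.09. The mean deviation of the leukocyte list was -0.18 to 1.18 in TG animals and -0.71 to -0.21 in WT animals, and its part in the endothelial values was not tested. Of 8 tubule genes none passed by limma (3 at an unadjusted p under 0.05), with Slc34a1 at -0.40 ± 0.08 (limma adjusted p = 0.0533) and Slc12a3 at 0.92 ± 0.21 (limma adjusted p = 0.0722). Slc34a1 passed in 9 of 25 alternative fits and Slc12a3 in 5 of 25, both among them with sex in the model (limma adjusted p = 0.0258 and 0.00328).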

How the data were processed

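The authors summarised each array with GCRMA, per the submitters' processing notes, which name no version. The deposited log2 values were used unchanged; their range shows the scale. Labelled RNA came from 6 ug of total RNA per kidney, per the labels. Gene names came from the platform annotation. Of 12488 probe sets 66 controls were left out, and the 6814 with a log2 value over 4 on at least 5 of the 10 arrays were tested. The number of arrays limits the precision.

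Genotypes were compared with lmFit and eBayes of limma 3.58.1 (R 4.3.3), two-sided, with Benjamini-Hochberg adjustment over all tested probe sets and a threshold of 0.05. The code was tested on simulated data. Where a gene had a pair of probe sets, the one with the higher mean stood for it. Correlations over animals used 100000 permutations, two-sided, in Python 3.11.15 with numpy 2.4.6. Sex was read as female where Xist was over 6. Chip lot, fluidics station and processing day came from the run records, per the file headers.

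The named genes were every probe set of the 9 genes, up to 3 members past the threshold in each other list (the 2 of smallest p where none passed), and the 8 genes most like the mean of the 8. The genes and lists were chosen with earlier results of these data known. For the adipose list, Adipoq and Retn were named after their values were seen, and 0 of its 3 genes on the array were tested. Hba-a1, Alas2 and Gp9, the rest of the tested list of blood cells and platelets, were also named after their values were seen. Alternatives covered the filter, the variance model, array weights, normalization, log scale, sex, number range, day, lot, station, probe set averaging and each animal left out; the number ranges as a comparison, sex and number range in 1 model and the joint removal of WT 612 and WT 618 were added after the data were seen. Protein sequences were not used here.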

Additional observations from a re-analysis of the deposited data

Results flagged for a closer look

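Of the 22 groups of 5 values examined (11 probe sets in 2 genotypes), 3 held an animal set apart from the rest of its group, where chance flags about 1 in 20 groups. On Flt1 98452_at WT 612 stood at 7.39, with a gap to the nearest WT animal of 0.744 of the WT range, against a critical value of 0.71. On Tie1 161184_f_at WT 612 stood at 8.32, with a gap of 0.725 of the range. On Cd34 160358_at WT 618 stood at 4.62, the lowest, with a gap of 0.811 of the range. Without WT 612 the differences between TG and WT were 0.03 for that Flt1 probe set and 0.15 for that of Tie1, and neither passed limma.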

How the results depend on the processing

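Over 266 alternative values of the 11 probe sets, 0 passed limma in the comparison of TG with WT (lowest adjusted p 0.132, for Cd34 on 97773_at with sex and number range in the model) and 14 changed sign. Tie1 on 161184_f_at was 0.078 with array weights, 0.083 with chip lot, 0.033 as the mean of its probe sets, -0.12 to 0.15 with 1 animal left out and 0.21 without WT 612 and WT 618. With both of these animals out, Pecam1 was -0.042, Flt1 on 98452_at 0.030 and Flt1 on 98453_at 0.044. With 1 animal left out, Pecam1 ran from -0.011 to 0.12, Flt1 on 98452_at from -0.16 to 0.028, Tek from -0.093 to 0.18, Synpo from -0.097 to 0.29, Wt1 from -0.11 to 0.17 and the median of the 8 genes from -0.025 to 0.16. The count over all tested probe sets, 83 as reported, was 48 without the filter, 36 with median centring, 285 with sex, 549 with sex and number range, 32 with day and 52 with station in the model, 31 to 92 with 1 animal left out, and 21 without WT 612 and WT 618.

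Between number ranges (245 probe sets as reported, 1 of them endothelial) the counts were 727 and 3 with sex, 0 and 0 with station, 0 and 0 with lot, 368 and 2 after quantile normalization, and 10 to 328 and 0 to 3 with 1 animal left out. There Tek was -0.0041 with sex, -0.25 with lot and -0.079 to 0.33 with 1 animal left out, Pecam1 -0.17 to 0.013, Flt1 on 98453_at -0.0046 to 0.17 and Cd34 on 160358_at -0.14 to 0.10. The 7 correlated pairs became 4 without TG 619, 0 without WT 612 and 0 without WT 612 and WT 618 (0 to 8 with 1 animal left out), and the median r was 0.57 after group and number range were subtracted and 0.26 to 0.53 with 1 animal left out. Fewer animals enter the fits that leave some out; beyond that the cause was not tested. No paired analysis was possible because the groups share no animal number and the labels give no pairs; the fit with sex and number range, added after the data were seen, uses the balance of both over the groups. In the fit as reported, with 5 arrays a group, an observed difference under 0.56 (log2) could not pass for any of the 11 probe sets.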
